A study of Homo sapiens with 19 samples.

Results

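The 4 H3K4me2 libraries of a CUT&RUN study of MOLM-13 cells are described here, 4 of the 19 libraries in the series. MOLM-13 is a human acute myeloid leukaemia line of monocytic kind that carries an MLL fusion gene. The Corin group (replicates 1 and 2) received 0.1 µM Corin for 24 h, and the control group (replicates 1 and 2) received the solvent DMSO for the same time. The labels also give 0.1 µM for the DMSO libraries, where the meaning of a dose is unclear. All 4 libraries come from this 1 line, and nothing in the labels says that a group's replicates were separate cultures, so p-values measure only the spread between these libraries. Each library has 1 deposited list of peaks with positions and scores and no reads. The depth of a library is therefore unknown beyond the minimum in the labels (5 M reads), and no interval that needs it was computed. The IgG libraries were not analysed here, and no antibody background enters the values.

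H3K4me2 is dimethylation of lysine 4 of histone H3. It lies beside active and poised promoters, where the nucleosomes nearest the start site often carry the trimethyl form, and at enhancers. LSD1 (KDM1A), a demethylase of the CoREST complex, removes the mono- and dimethyl forms. In myeloid cells the transcription factor GFI1 recruits LSD1 and CoREST to enhancers of differentiation genes through its SNAG domain. Corin joins an LSD1-inhibiting and a histone deacetylase-inhibiting part in 1 molecule, so the comparison addressed where H3K4me2 lay when both activities of CoREST were blocked.

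Overlapping or touching peaks of the 4 lists were merged into 42421 union regions. A region within 1000 bp of any of 84769 annotated transcription start sites (TSSs) was called promoter, and every other region distal. Gained regions held a peak in both Corin lists and in neither DMSO list, and lost regions the opposite. The same count for regions held by both libraries of 1 replicate number only, the replicate split, measured noise. Every count was made with all peaks and with a matched number, the 30896 top-scoring peaks of each list, which is the length of the shortest list.

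Sequences are shown on the plus strand of hg38 for gained and for lost regions. Because GFI1 is the factor that brings LSD1 to myeloid enhancers, the first 4 are distal regions gained under both counts that hold a match to the GFI1 motif (AATCACNGC on either strand), by the bases around the match in capitals. They are 4 of the 6 highest-ranked such regions, a set formed after the motif shares were known. The region nearest ZNRF2, a ubiquitin ligase gene, had peaks of 718 bp in Corin replicate 1 and 319 bp in replicate 2. The region in an intron of ALDH1L2, a mitochondrial folate enzyme gene, had 246 and 219 bp. The region nearest EPHB4, an ephrin receptor gene, had 503 and 428 bp, and that nearest TMPO, a nuclear lamina gene, had 933 and 396 bp. None of the 4 had a peak in a DMSO list.
ZNRF2 (chr7:30226153-30226221): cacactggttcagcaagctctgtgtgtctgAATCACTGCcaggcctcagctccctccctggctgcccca
ALDH1L2 (chr12:105100517-105100585): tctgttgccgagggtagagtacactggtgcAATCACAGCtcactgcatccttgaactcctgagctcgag
EPHB4 (chr7:100799561-100799629): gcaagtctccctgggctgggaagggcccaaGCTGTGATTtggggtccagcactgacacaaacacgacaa
TMPO (chr12:98464243-98464311): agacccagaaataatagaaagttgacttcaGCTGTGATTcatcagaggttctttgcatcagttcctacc

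For the opposite pattern, the highest-ranked lost distal and lost promoter regions are shown by their central 300 bases. The lost distal region was intergenic and lay 13.4 kb from the TSS of KLRF1, a natural killer cell receptor gene, with 315 bp in DMSO replicate 1 and 237 bp in replicate 2. The lost promoter region spanned a TSS of PURPL, a long non-coding transcript of the p53 pathway, within an annotated exon, with 302 bp in DMSO replicate 1 and 553 bp in replicate 2. Capitals in it mark matches to the C/EBP motif given further on. All 4 H3K4me3 lists and all 4 H3K27ac lists held a peak at the PURPL region. The repeat content of the sequences was not analysed here.
KLRF1 (chr12:9813982-9814281): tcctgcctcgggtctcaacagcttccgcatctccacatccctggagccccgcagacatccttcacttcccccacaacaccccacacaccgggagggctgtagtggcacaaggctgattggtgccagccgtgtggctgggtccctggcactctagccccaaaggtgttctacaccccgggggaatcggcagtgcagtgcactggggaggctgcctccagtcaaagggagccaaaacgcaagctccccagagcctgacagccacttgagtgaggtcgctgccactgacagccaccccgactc
PURPL (chr5:27472291-27472590): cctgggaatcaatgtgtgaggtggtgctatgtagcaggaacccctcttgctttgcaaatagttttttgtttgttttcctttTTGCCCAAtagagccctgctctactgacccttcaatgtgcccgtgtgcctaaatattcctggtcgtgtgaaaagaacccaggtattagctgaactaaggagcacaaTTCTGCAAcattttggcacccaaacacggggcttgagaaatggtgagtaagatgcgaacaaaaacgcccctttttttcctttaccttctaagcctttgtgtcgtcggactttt

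The label of the cells was checked against promoter peaks of marker genes. Of 9 myeloid markers, 8 to 9 had a promoter peak in each library, against 1 of 8 T cell markers, 1 of 10 erythroid and megakaryocyte markers and 3 to 4 of 7 B cell markers. The DMSO replicate 2 library stood apart from the other 3 at the start sites themselves. Among 11793 protein-coding TSSs with H3K4me2 within 1000 bp in all 4 lists, a peak lay over the TSS in 68.7% in that library, against 55.8% and 54.2% in Corin replicates 1 and 2 and 48.5% in DMSO replicate 1. Counts of promoter coverage over all genes and by gene list are therefore also given without it, except for the B cell markers and the split by H3K4me3.

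The Corin lists were longer, and the added peaks were mostly distal. Distal peaks numbered 21940 and 20734 in Corin replicates 1 and 2, and 12773 and 14566 in DMSO replicates 1 and 2. The groups did not overlap, with a log2 ratio of the group means of 0.64 (exact two-sided permutation test, p = 0.33, the smallest that 2 libraries against 2 can give). Promoter peaks numbered 19212 and 19308 in Corin against 18123 and 17733 in DMSO, a log2 ratio of 0.10 (exact p = 0.33). At the matched number the promoter ratio changed sign to -0.06, with 17000 and 16937 peaks in Corin against 18123 and 17375 in DMSO, and the distal ratio was 0.08, with 13896 and 13959 against 12773 and 13521. The lowest score at the matched number was 130 and 120 in Corin and 50 and 70 in DMSO.

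Among 24328 distal regions, 3729 (15.3%) were gained and 39 (0.16%) were lost. The replicate split held 533 regions for replicate 1 and 380 for replicate 2, so gains outnumbered either part of the split and losses were fewer than both. At the matched number 1241 distal regions (7.05%) were gained and 267 (1.52%) lost, against 624 and 526 in the replicate split. Gains thus exceeded the noise measure under both counts, whereas losses did so under neither. Of 1238 union regions gained at the matched number, 1153 were also gained with all peaks. Of the 267 lost ones, 234 still had a lower-scoring peak in at least 1 Corin list.

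**Figure D1:**
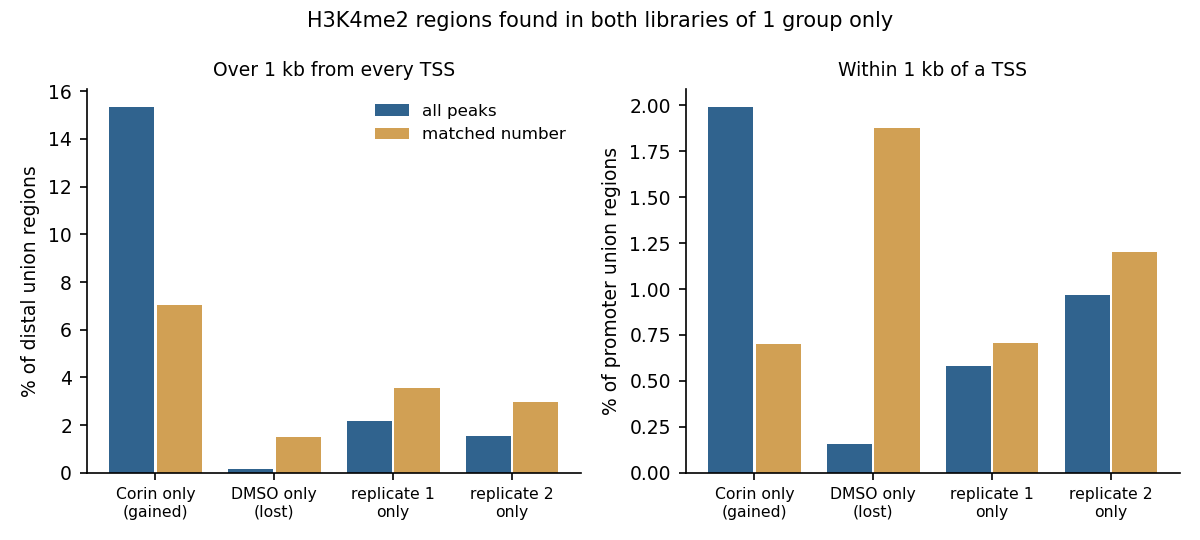
Percent of distal (left) and promoter (right) union regions found in both libraries of 1 group only, with all peaks (blue) and with the 30896 top-scoring peaks per list (ochre); the 2 vertical scales differ. Distal gains (15.3% and 7.05%) are the highest bars at left, while promoter losses (0.155% and 1.88%) change place with promoter gains (1.99% and 0.702%) at the matched number.

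Gained distal regions had modest peaks. Their median width was 574 bp, against 1196.5 bp for the 8472 distal regions present in all 4 lists. Counted from the highest score, the gained regions had their median rank at 74.9% of the Corin replicate 1 list and 78.3% of the replicate 2 list. Regions of the replicate split were alike in this, with median widths of 495 and 436.5 bp for replicates 1 and 2. Their median rank was at 77.1% of the Corin replicate 1 list and 80.7% of the Corin replicate 2 list. When the peaks of Corin replicate 1 were cut by score into 4 bins of equal size, 18.4% of those in the lowest bin lay in gained distal regions, and 0.36% of those in the highest. The corresponding values in Corin replicate 2 were 22.1% and 0.27%. Strong gains were therefore few. The leading regions included 1 in an intron of RAB37, a Rab GTPase gene, with peaks of 1406 and 1454 bp in Corin replicates 1 and 2, and intergenic ones nearest NAA16 (1042 and 995 bp), nearest KCTD6 (1756 and 1769 bp) and nearest TMEM65 (2029 and 2092 bp). None of these had a peak in a DMSO list.

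The gained distal regions lay in introns in 56.7% and between genes in 36.3% of cases, against 51.6% and 33.7% of the regions present in all 4 lists. Exons held 7.0% of the gained and 14.7% of the constant regions. The median distance to the nearest TSS was 14.3 kb, against 12.4 kb. The median GC content of the central 300 bp was 46.3% against 48.7%, and the mean number of CpG dinucleotides was 3.87 against 7.39. The weaker regions were alike in part, with 3.51 and 7.58 CpG in the replicate split and 4.06 in single-list regions, and intron shares of 61.7%, 59.2% and 61.1%. These are descriptions of the regions and not tests across libraries. By chromosome, the autosomal share of distal regions that were gained ran from 7.61% on chromosome 21 to 20.5% on chromosome 8, where the replicate split was 2.57%.

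H3K4me3 and H3K27ac peaks were fewer at the gained than at the constant distal regions, and the regions of the replicate split and of a single list were also low in them. H3K4me3 peaks touched 1 of the 3729 regions in any of its 4 lists, against 934 of the 8472 constant regions, 4 of 533 and 3 of 380 in the replicate split, and 24 of 7321 found in a single list. No H3K27ac list, the acetyl mark of active enhancers, held a peak at 2293 of the gained regions (61.5%), against 32.01% of the constant regions, 51.6% and 65.8% of the replicate split and 70.03% of single-list regions. The single H3K27ac lists covered 32.1% and 25.05% in Corin and 9.81% and 10.3% in DMSO. At constant distal regions the same 4 values were 62.7%, 55.9%, 38.6% and 40.9%. The H3K27ac lists were themselves longer in Corin (34424 and 30029 peaks) than in DMSO (17597 and 19995), and the part of list length in these shares was not tested.

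Exact matches to 9 short motifs were sought on both strands of the central 300 bp: PU.1 (GAGGAAGT), ETS (CCGGAAGT), RUNX (TGTGGTT), C/EBP (TTGCNNAA), AP-1 (TGANTCA), GFI1 (AATCACNGC), ISRE (GAAANNGAA), E-box (CACGTG) and, for the proteins of the GATA family, AGATAA. The PU.1 and ETS motifs share their last 6 letters. The GFI1 motif was found in 73 gained distal regions (1.96%), in 57 constant ones (0.673%), in 0 of the 39 lost ones, and in 1.13% and 0.263% of the 2 parts of the replicate split. At the matched number the shares were 2.58% of gained, 0.678% of constant and 0.749% of lost regions. The motif was in 1.14% of all distal regions, and in 1.48% of regions found in a single list. AP-1 sites were in 19.4% of gained, 13.6% of constant and 16.2% of all distal regions, and in 18.8% and 15.5% of the replicate split. The PU.1 share was 6.54% of gained and 5.24% of constant regions, the RUNX share 11.5% and 9.38%, and the C/EBP share 20.5% and 17.6%. In the replicate split these were 5.82% and 7.11% for PU.1, 9.94% and 8.95% for RUNX, and 22.5% and 16.3% for C/EBP. The ISRE share was 12.7% and 12.8%, the GATA share 15.8% and 13.9% (21.4% and 7.11% in the replicate split), the E-box share 3.86% and 5.05%, and the ETS share 0.402% and 0.567%. A match is a description of letters, and the regions differ in base composition as given above. The 4 gained sequences shown at the start are examples of the GFI1 matches.

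Distal regions present in all 4 lists were wider after Corin. Their median covered length was 1098 and 976 bp in Corin replicates 1 and 2 and 706 and 747 bp in DMSO replicates 1 and 2, with no overlap of the groups (exact two-sided permutation test, p = 0.33, the smallest possible). The median over regions of the difference of group means was 239.5 bp. Both Corin values exceeded both DMSO values in 5030 of 8472 regions (59.4%), and the reverse held in 167 (1.97%). The replicate split gave 15.1% for replicate 1 and 8.85% for replicate 2. At the matched number the median difference was 244.5 bp and the shares were 59.8% and 1.82%. That count drops whole peaks and leaves the width of the kept ones as it was, so it cannot test the widening. Covered length stayed unequal there, at 43.0 and 38.4 Mb in Corin against 33.4 and 36.1 Mb in DMSO. Promoter regions moved less. Their median covered length was 1640 and 1500.5 bp in Corin and 1367 and 1507 bp in DMSO, so the groups overlapped (exact p = 0.667). Wider in both Corin libraries were 4916 of 15104 promoter regions (32.5%), and narrower 946 (6.26%), against 17.3% and 16.7% in the replicate split. The matched shares were 31.8% and 6.84%.

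**Figure D2:**
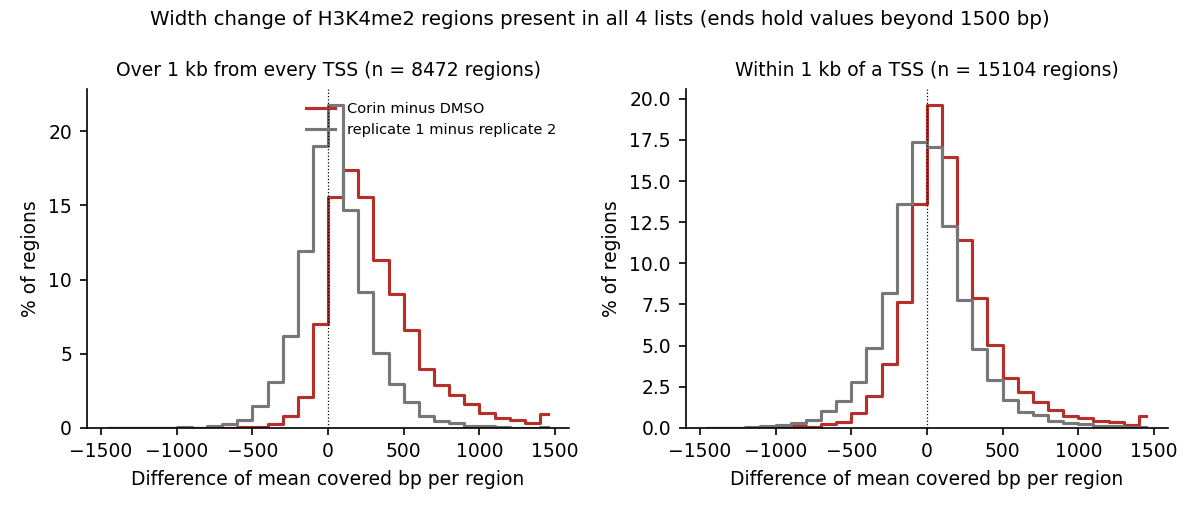
Distribution over regions present in all 4 lists of the difference in covered bp, as percent of regions per 100 bp step, for distal (left) and promoter regions (right). The red line (mean of Corin minus mean of DMSO) lies to the right of the grey line (replicate 1 minus replicate 2), by more at distal regions, where the median difference was 239.5 bp, than at promoters, where it was 108 bp.

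Gene by gene, distal coverage was summed as bp under peaks in distal regions given to the nearest protein-coding TSS within 100 kb, and fitted with limma over 7147 genes. At an adjusted p below 0.05, 743 genes (10.4%) had higher coverage in Corin and 0 had lower. Without adjustment 2671 genes were higher and 2 lower at p below 0.05. The median difference over all genes tested was 504 bp. Both Corin values lay above both DMSO values in 4801 genes (67.2%) and below in 60 (0.84%), and did so under both counts in 3234 (45.2%) and 54 (0.756%). The calls were close to the threshold, the smallest adjusted p being 0.0417. At the matched number 0 of 6220 genes passed (smallest adjusted p 0.0627, with 1521 higher and 20 lower without adjustment), and 0 passed without DMSO replicate 1 or without DMSO replicate 2. Of the 743 genes, 670 kept both Corin values above both DMSO values at the matched number.

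SMAD3, a signal transducer of the TGF-β pathway, had the largest called rise. Its distal coverage was 18428 and 16982 bp in Corin replicates 1 and 2 and 6538 and 8381 bp in DMSO, a difference of 10245.5 bp (SE 1226, adjusted p = 0.0417). RBM47, which encodes an RNA-binding protein, had 14381 and 9843 bp against 2100 and 3369 bp (difference 9377.5 bp, SE 1663, adjusted p = 0.0446). DOCK5, an activator of the GTPase Rac, had 7915 and 7321 bp against 1172 and 1102 bp (difference 6481 bp, SE 415, adjusted p = 0.0417). In each of these 3 genes every Corin value was above every DMSO value, with gaps larger than the spread of either group. The other 7 of the 10 largest called rises were at FOXN3, a forkhead repressor gene, ARHGAP26, a GTPase-activating protein gene, AKAP13, a kinase-anchoring protein gene, RMI2, a DNA repair subunit, SASH1, a signalling adaptor, TBC1D14, an autophagy regulator, and MTSS1, an actin and membrane regulator. Their rises ran from 6525 bp at MTSS1 to 8205.5 bp at FOXN3. The adjusted p of these 10 genes at the matched number ran from 0.0627 to 0.159. DOCK5 alone of the 10 kept its call when Corin replicate 1 or 2 was left out, and none did without DMSO replicate 1 or 2.

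Some genes had several gained regions. At least 1 gained distal region was nearest to 2331 of 20033 protein-coding genes (11.6%), at least 2 to 544 genes, at least 3 to 143 and at least 5 to 23. The corresponding counts for the replicate split were 409, 18, 2 and 0 for replicate 1 and 320, 8, 0 and 0 for replicate 2, while lost regions were nearest to 32 genes with 1 each. The replicate split holds fewer regions in all, and whether gains cluster beyond their number was not tested. ARHGAP26 had 8 gained regions and JMJD1C, a JmjC-domain chromatin gene on which MLL-fusion leukaemias depend, had 7. SNAI1, RBM47, PPARG, ATXN1, LYST, ENPP2 and MPEG1 had 6 each. Fewer of these regions were gained at the matched number, 3 at ARHGAP26 and 1 at JMJD1C. The others kept 4 at RBM47, 3 at LYST, 2 each at SNAI1 and ENPP2, 1 each at PPARG and ATXN1, and 0 at MPEG1.

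MPEG1 encodes the pore-forming perforin-2 of macrophages. Its distal coverage was 3981 and 3167 bp in Corin against 216 and 0 bp in DMSO (adjusted p = 0.0417) and at the matched number 1432 and 287 bp against 216 and 0 bp. PPARG encodes a lipid-sensing nuclear receptor of macrophages, and had 7310 and 3938 bp against 1552 and 1011 bp (adjusted p = 0.0799), and at the matched number 2620 and 1859 bp against the same DMSO values. LYST, a regulator of lysosome size, had 12985 and 9217 bp against 5075 and 3403 bp (adjusted p = 0.0562). All 3 had non-overlapping groups, but PPARG and LYST did not pass the test.

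Few genes had less distal coverage, and none passed. AIFM3, a mitochondrial oxidoreductase gene, had 0 bp in both Corin libraries and 599 and 606 bp in DMSO (difference -602.5 bp, adjusted p = 0.0585). Its coverage came from 1 lost region, which lay in an exon of CRKL. FOXC1, a forkhead factor that is aberrantly active in some myeloid leukaemias, had 780 and 990 bp against 1076 and 2356 bp (adjusted p = 0.258). ANP32A, KLRF1 and KMT5B completed the 5 largest differences in this direction, with adjusted p of 0.255, 0.225 and 0.227.

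Among 20 monocyte and macrophage genes, 15 could be tested for distal coverage, and 4 were higher at an adjusted p below 0.05, of which 3 are named. LYZ, which encodes lysozyme, rose from 564 and 919 bp in DMSO to 5402 and 4761 bp in Corin (difference 4340 bp, adjusted p = 0.0417). VCAN, a versican gene of classical monocytes, had 1928 and 1792 bp against 0 and 0 bp (adjusted p = 0.0417). CSF1R, the macrophage growth factor receptor gene, had 2112 and 2803 bp against 0 and 689 bp (adjusted p = 0.0456). In all, 13 of the 15 had both Corin values above both DMSO values, beside 67.2% of all genes tested. Under both counts 10 did so, beside 45.2%. The 4 calls stood beside 10.4% of all genes, and the median difference of the 15 was 1107 bp beside 504 bp. Genes were tested by their mean over all 4 libraries. A member without DMSO coverage, such as VCAN, therefore entered through its Corin values alone and could not be lower. Of the tested markers of other lineages, 4 of 5 for T cells and 3 of 4 for B cells had higher distal coverage in both Corin libraries. So did 0 of 3 for erythroid and megakaryocyte cells. These numbers were the same under both counts. The T cell markers included the T cell receptor subunit gene CD3E (2389 and 3097 bp against 691 and 688 bp, adjusted p = 0.0423). The part of these lineages in the counts of myeloid genes was not tested. CD86, the T cell costimulator gene, had 6973 and 5126 bp against 1853 and 2698 bp without passing (adjusted p = 0.0528).

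Of 16 testable genes for myeloid transcription factors, 13 were higher in both Corin libraries and 4 passed, beside 67.2% and 10.4% of all genes. Under both counts 11 were higher, beside 45.2% of all genes. IRF8, a monocyte lineage factor, had 6054 and 6245 bp against 2738 and 2542 bp (adjusted p = 0.0417). KLF2, a regulator of monocyte quiescence, had 6775 and 6248 bp against 1380 and 1934 bp with 4 gained regions (adjusted p = 0.0417). FOS, an AP-1 subunit gene, had 9220 and 7951 bp against 4665 and 4819 bp (adjusted p = 0.0426), and IKZF1, the Ikaros gene, had 12564 and 11892 bp against 7624 and 6714 bp (adjusted p = 0.0423). The values of these 4 did not overlap between groups. The difference at IRF8 was 1055.5 bp at the matched number in place of 3509.5 bp, and 0 of its 2 gained regions held. CEBPA, a driver of granulocyte and monocyte fate, had 8690 and 8309 bp against 5928 and 6587 bp (adjusted p = 0.0720), and GFI1 had 12634 and 9441 bp against 7447 and 7511 bp (adjusted p = 0.121), with overlap at the matched number.

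Of the stem cell and MLL-fusion target genes, 11 of 15 had higher distal coverage in both Corin libraries, near the 67.2% of all genes. Under both counts 8 did so, beside 45.2% of all genes. CDK6, a cell cycle kinase gene, passed with 12584 and 10760 bp against 5060 and 6405 bp (adjusted p = 0.0425). Its difference went from 5939.5 bp to 3198.5 bp at the matched number, where 0 of its 2 gained regions held. MYB, a stem and progenitor factor gene, had 12396 and 11317 bp against 8051 and 8480 bp (adjusted p = 0.0576). Retinoic acid pathway genes were higher in both Corin libraries in 11 of 11 tested, 10 of them under both counts, and 0 passed. Granule and neutrophil genes were higher in 7 of 9 (6 under both counts) and 0 passed. Neuronal targets of the repressor REST were higher in 2 of 6 (1 under both counts) with 0 passing. Among CoREST complex genes 3 of 5 were higher and 0 passed, and 0 were higher under both counts. Among H3K4 methylation enzymes 4 of 4 were higher, 3 of them under both counts, and 1 passed, beside 10.4% of all genes. This was WDR5, a shared subunit of the methyltransferase complexes, whose difference of 2417 bp was 1005.5 bp at the matched number.

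At promoters, 360 of 18093 union regions (1.99%) were gained and 28 (0.155%) were lost, against 105 and 175 in the replicate split. With the matched number the order turned, and 121 (0.702%) were gained and 324 (1.88%) lost, against 122 and 207. Gains exceeded both parts of the replicate split with all peaks only, and losses at the matched number only. Of 317 union regions lost at the matched number, 290 still had a lower-scoring peak in at least 1 Corin list, and 27 were lost with all peaks too. Gained promoter regions had a median width of 560 bp, against 1855.5 bp for the 15104 in all 4 lists, and 8.09 CpG per 300 bp, against 15.6. The nearest TSS belonged to a long non-coding RNA for 42.2% of the gained and 17.3% of the constant regions. A main protein-coding TSS lay within 1000 bp of 158 of the 360 gained (43.9%) and of 85.4% of the constant regions. H3K4me3 peaks in any list touched 10.8% of the gained, 71.4% of the lost and 81.2% of the constant promoter regions. In the replicate split the median width was 462 and 481 bp, the long non-coding share 33.3% and 22.3%, and the H3K4me3 share 42.9% and 34.9%.

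The strongest gained promoter region lay at LY96, which encodes the MD-2 partner of the endotoxin receptor, with peaks of 1913 and 1900 bp at 7.70% and 5.91% from the top of the 2 Corin lists. Next came IL21R, a cytokine receptor gene (2566 and 2465 bp), and then 3 long non-coding RNA genes, among them LUCAT1, a transcript also found in myeloid cells (1537 and 1046 bp). The leading lost promoter regions beside PURPL lay at TRIM66, EIF2S3, INTS6 and KCNK10. Their DMSO peaks were 202 to 716 bp wide, and none ranked above 62.1% of its list.

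Coverage was also read by position around the TSS, where the outer flanks separated the groups and the start site did not. Among 9429 TSSs with H3K4me2 and H3K4me3 in all 4 lists of each, the position 2000 bp downstream was covered in 36.2% and 31.7% in Corin replicates 1 and 2 and in 27.8% and 27.3% in DMSO. The position 2000 bp upstream was covered in 16.8% and 14.6% against 12.5% and 12.4%. Both positions were higher in both Corin libraries. At the matched number, which leaves the width of kept peaks as it was, the downstream position was covered in 35.2% and 30.4% against 27.8% and 27.1%. At the TSS itself the groups overlapped, with 48.9% and 47.2% in Corin and 42.3% and 64.8% in DMSO. Among 1606 TSSs with H3K4me2 in all 4 lists and H3K4me3 in none, coverage had a single summit. At these TSSs the position 500 bp downstream was covered in 68.6% and 67.1% in Corin against 52.1% and 63.9% in DMSO. Single promoters differed over the TSS too, in both directions. The 2271 promoters with higher coverage in both Corin libraries were chosen by that difference. Within 250 bp of the TSS they were covered to 79.7% and 79.5% in Corin and 60.4% and 70.3% in DMSO. In the 1456 promoters whose coverage was lower in both Corin libraries, which that difference chose, the bases within 250 bp of the TSS were covered to 33.4% and 32.5% in Corin and 51.4% and 63.04% in DMSO, and the rest of the window to 60.3% and 56.3% against 70.04% and 72.4%.

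**Figure D3:**
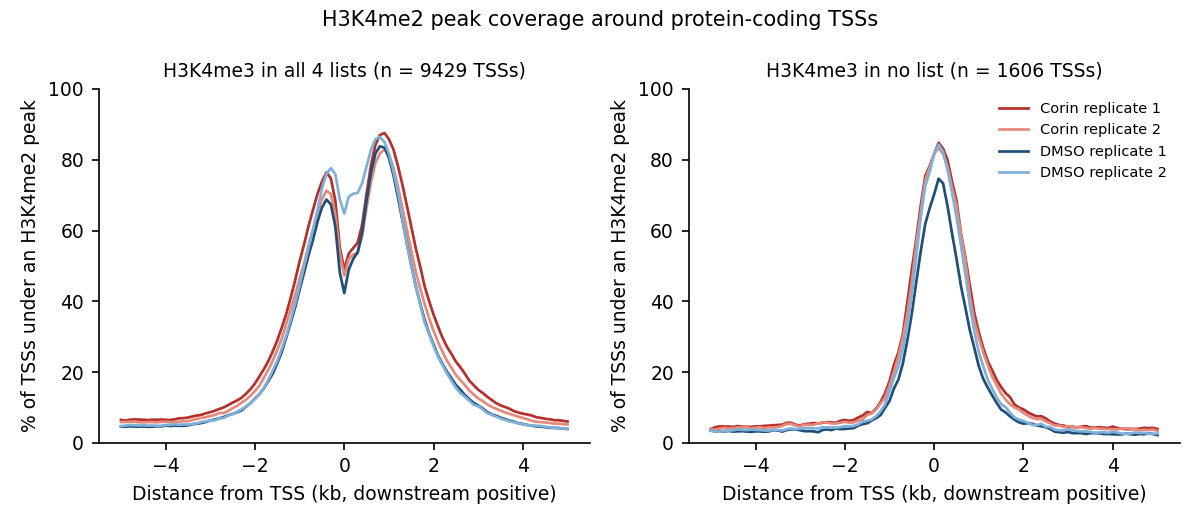
Percent of protein-coding TSSs under an H3K4me2 peak by distance from the TSS in kb, 1 line per library, for TSSs with H3K4me3 in all 4 lists (left, n = 9429) and in none (right, n = 1606). At left the 2 red Corin lines lie above both blue DMSO lines on the outer flanks, and DMSO replicate 2 (light blue, 64.8%) alone stays high over the TSS.

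Promoter coverage per gene was the peak-covered length in a 2001 bp window centred on the main TSS, fitted with limma over 12493 genes. No gene passed an adjusted p of 0.05 in either direction (0% higher and 0% lower, smallest adjusted p 0.723), with 472 higher and 298 lower at an unadjusted p below 0.05. This balance depended on the scaling. The unadjusted counts were 371 higher and 470 lower at the matched number, and 117 higher and 3512 lower with coverage as a share of each library's covered length, which moved the median difference to -310.5 bp. Without DMSO replicate 2, 324 genes were called higher and 6 lower. Both Corin values lay above both DMSO values in 2271 genes (18.2%) and below in 1456 (11.7%), against 12% and 21.5% in the replicate split, so neither direction exceeded both parts of the noise measure. The values of single promoters below are therefore descriptions.

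The promoters with the largest differences toward Corin had less than 1000 bp in each DMSO library. TREM1, an amplifying receptor of myeloid inflammation, had 1726 and 1631 bp in Corin and 0 and 208 bp in DMSO (difference 1574.5 bp, SE 123.0, adjusted p = 0.723). ITGAM, which encodes the monocyte integrin CD11b, had 1232 and 1235 bp against 0 and 0 bp. LY96 had 1468 and 1435 bp against 0 and 0 bp. CIITA, the master activator of MHC class II genes, had 1598 and 1799 bp against 0 and 313 bp. In these 4 genes the Corin values were close to each other and far above both DMSO values. The others were FCRLA, CD48, LSP1, RTL3, IFI16 and IL23A, with differences from 1145 bp at IL23A to 1547.5 bp at FCRLA. H3K4me3 was listed at 0 bp in all 4 libraries in the promoter windows of all 10. H3K27ac was 623 and 426 bp in Corin against 0 and 242 bp in DMSO at TREM1, 315 and 1156 bp against 0 and 0 bp at LY96, and 0 in all 4 at FCRLA, CD48 and LSP1.

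The 5 largest differences in the other direction were at promoters with H3K4me3 in all 4 lists. CXCR4, the chemokine receptor gene that holds leukaemia cells in the marrow, had 930 and 899 bp in Corin and 2001 and 2001 bp in DMSO (difference -1086.5 bp, SE 72.6, adjusted p = 0.723). The DMSO peak ran unbroken across the TSS, whereas in both Corin lists the peaks stopped upstream of it and began again downstream. H3K4me3 covered all 2001 bp of this window in all 4 libraries. RPL36AL, a ribosomal protein gene, and MGAT2, a glycosylation enzyme gene, are transcribed away from each other from 1 shared promoter, and had 651 and 275 bp against 1686 and 1662 bp, and 824 and 448 bp against 1686 and 1662 bp. NUBP2, an iron-sulfur cluster assembly gene, had 794 and 416 bp against 1437 and 1768 bp. CRBN, the ubiquitin ligase receptor gene targeted by thalidomide analogues, had 165 and 541 bp against 1286 and 1330 bp. In all 5 the groups did not overlap, and none passed the test.

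Split by H3K4me3, promoters with that mark in none of its lists were higher in both Corin libraries in 757 of 2079 genes (36.4%) and lower in 87 (4.18%). With H3K4me3 in all 4 lists the counts were 1269 of 9632 (13.2%) and 1343 (13.9%). The replicate split was 7.07% and 24.4% in the first class and 12.9% and 21.0% in the second. At the matched number the shares were 29.7% higher and 7.60% lower without H3K4me3, and 11.3% and 17.6% with it. In the first class the higher share exceeded both parts of the replicate split under both counts, and in the second neither direction did. Median coverage in the first class was 982 and 953 bp in Corin against 678 and 911 bp in DMSO.

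Among 16 testable monocyte and macrophage promoters, 12 were higher in both Corin libraries and 0 lower, beside 18.2% and 11.7% of all promoters. At the matched number 10 were higher as well. ITGAM, CD86, S100A8, S100A9 and CD36 had H3K4me3 in no list, a class in which 36.4% of promoters were higher and 4.18% lower. The part of this class in the counts was not tested. Of 4 testable B cell marker promoters, 3 were higher (CD79B, PAX5 and EBF1) and 0 lower, and 2 were higher under both counts. None passed the adjusted test. Without DMSO replicate 2, a comparison added after seeing the data, 14 of 16 were higher and 0 lower, beside 48.9% and 17.3% of all promoters. The median difference was 316 bp, beside 8.5 bp over all genes tested. Besides ITGAM, the alarmin genes S100A9 (768 and 1139 bp against 0 and 0 bp) and S100A8 (949 and 866 bp against 0 and 259 bp), CD86 (1450 and 1001 bp against 198 and 232 bp), the scavenger receptor gene CD36 (1552 and 1325 bp against 693 and 0 bp) and LYZ (2001 and 1940 bp against 1336 and 1300 bp) had no overlap. S100A9 and CD36 overlapped at the matched number, with differences of 384 and 429.5 bp in place of 953.5 and 1092 bp. CSF1R, called distally, overlapped at the promoter (1308 and 1376 bp against 1265 and 1314 bp). FCGR1A, CD163, MRC1 and MSR1 were below the filter of a mean of 100 bp.

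Stem cell and MLL-fusion target promoters were more often lower than higher. Of 17 tested, 7 were lower in both Corin libraries and 1 higher, beside 11.7% and 18.2% of all promoters, all 7 also at the matched number, and the median difference was -149 bp. None passed, and 4 of the 17 were apart by replicate number. The 7 lower promoters had H3K4me3 in all 4 lists, a class in which 13.2% of promoters were higher and 13.9% lower. The part of this class in the counts was not tested. Without DMSO replicate 2, 8 were lower and 4 higher, beside 17.3% and 48.9% of all promoters. HOXA9 had 506 and 410 bp against 838 and 826 bp, and HOXA7 had 1626 and 1780 bp against 2001 and 2001 bp. MEIS1, the cofactor gene of HOXA9, had 876 and 931 bp against 1270 and 1517 bp. MYB had 484 and 523 bp against 725 and 846 bp, JMJD1C 1250 and 1445 bp against 2001 and 2001 bp, CDK6 800 and 733 bp against 909 and 1486 bp, and MEF2C 620 and 414 bp against 818 and 683 bp. The 1 higher promoter was that of GATA2, with 1656 and 1676 bp against 931 and 1315 bp, which overlapped at the matched number. CDK6, MEIS1, MYB and JMJD1C had more distal coverage in both Corin libraries while their promoter coverage was lower in both, although the distal values of MEIS1 overlapped at the matched number (difference 197 bp in place of 752.5 bp).

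**Figure D4:**
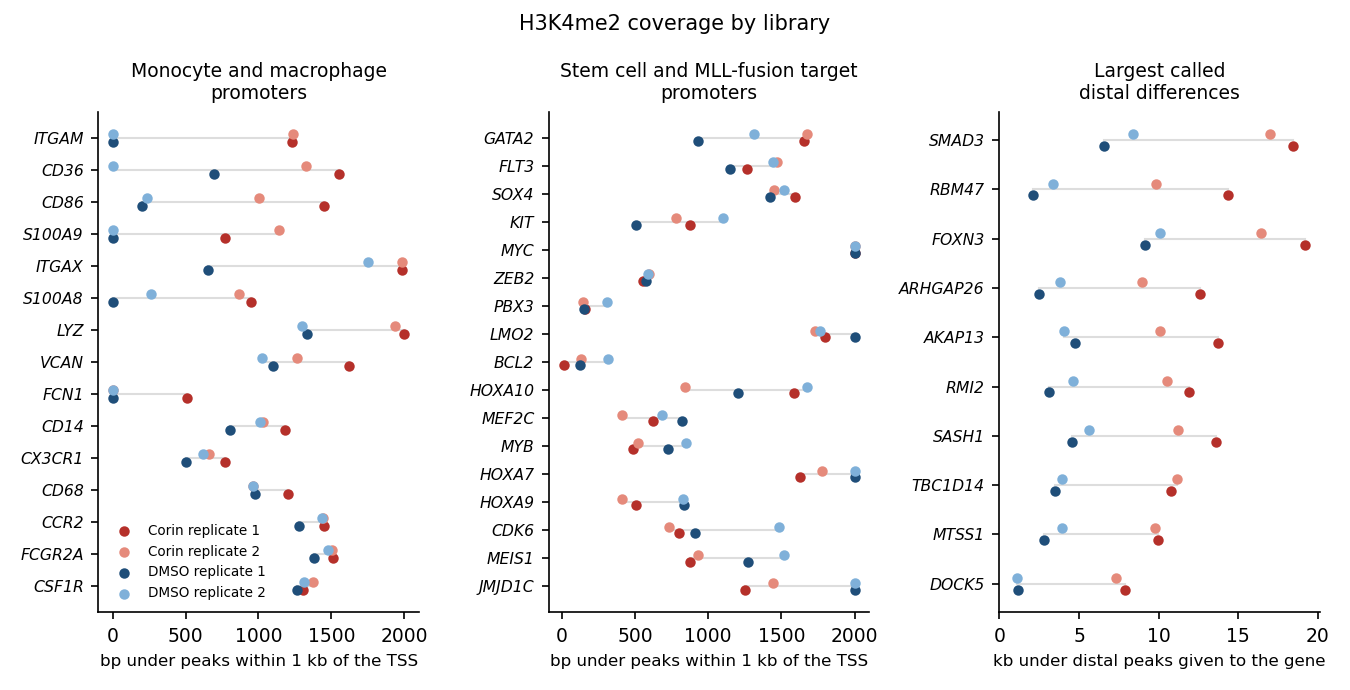
H3K4me2 coverage in each library, 1 point per library (red Corin, blue DMSO), for promoters of 15 of the 16 tested monocyte genes (left, bp) and stem cell and MLL-fusion target genes (middle, bp), and for distal coverage of the 10 genes with the largest called rises (right, kb). Red points lie to the right at ITGAM (1232 and 1235 bp against 0) and at all 10 distal genes, and to the left at 7 stem cell genes such as MEIS1.

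**Figure D5:**
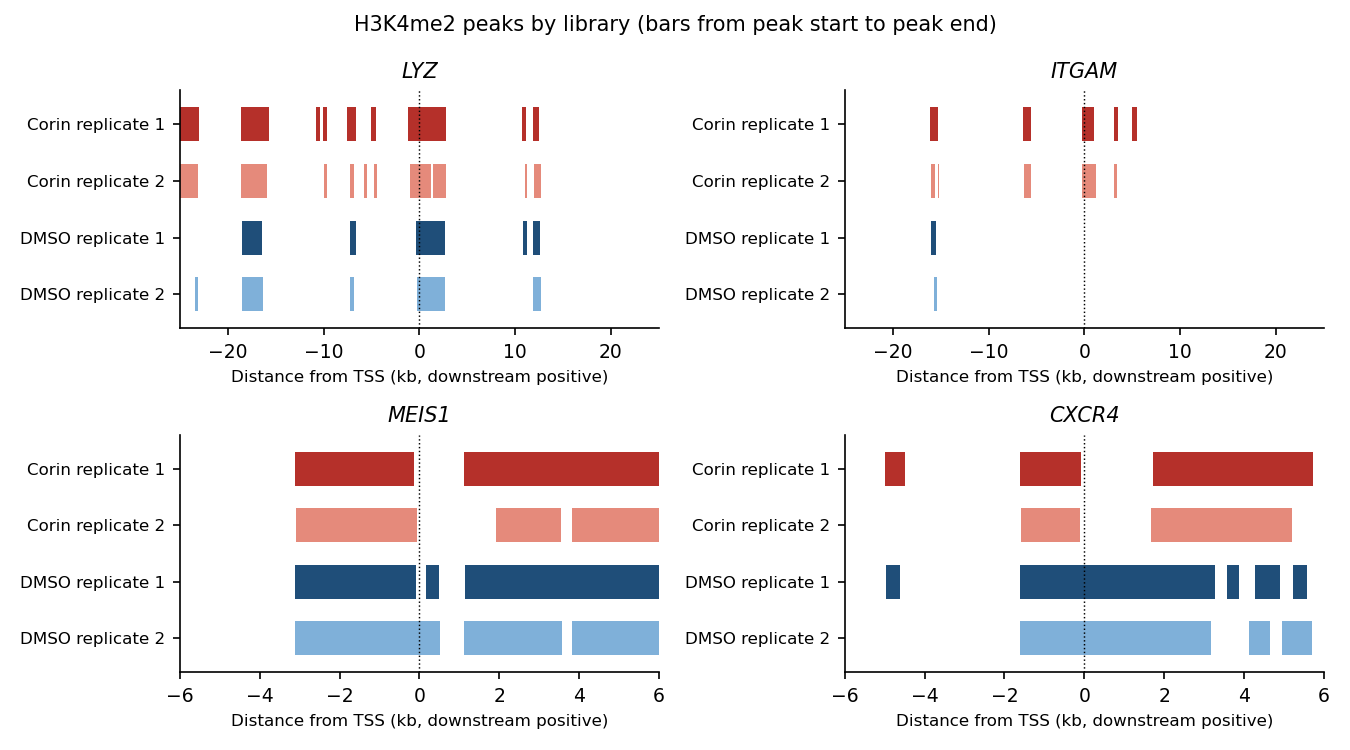
H3K4me2 peaks of each library as bars, by distance from the TSS in kb, at LYZ, ITGAM, MEIS1 and CXCR4. At LYZ and ITGAM the Corin lists hold additional peaks, 2 gained distal regions being assigned to each gene (2 at LYZ and 0 at ITGAM at the matched number), while at CXCR4 and MEIS1 the Corin lists have a gap over and downstream of the TSS that the DMSO lists fill in part or in full.

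The other lists are read beside the 18.2% of all promoters that were higher and the 11.7% that were lower in both Corin libraries, or, without DMSO replicate 2, 48.9% and 17.3%. Promoters of myeloid transcription factors were higher at 1 of 18, CEBPE (2001 and 2001 bp against 1719 and 1824 bp), and lower at 1, KLF4 (1764 and 1779 bp against 2001 and 1783 bp). Of 12 CoREST complex genes, the promoters of HDAC2, PHF21A and ZMYM2 were lower in both Corin libraries and 0 were higher. ZMYM2 was barely apart, with 1133 and 1130 bp against 1134 and 1347 bp. Without DMSO replicate 2 the counts for this list were 4 lower and 4 higher. Of 14 genes of H3K4 methylation enzymes, MEN1 was higher and KDM5C and RBBP5 were lower. Among granule and neutrophil genes 4 of 10 were higher, PRTN3, CSF3R, CAMP and CXCR2, among retinoic acid genes 2 of 11, RARB and CRABP2, and among neuronal REST targets 2 of 6. Without DMSO replicate 2, 10 of 18 myeloid transcription factors were higher and 2 lower, 6 and 2 of 14 H3K4 methylation enzymes, 8 and 0 of 10 granule and neutrophil genes, 7 and 0 of 11 retinoic acid genes, and 5 and 0 of 6 neuronal REST targets. None of these promoters passed the adjusted test with all 4 libraries.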

How the data were processed

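CUT&RUN peak lists of 4 H3K4me2 libraries were analysed, with the 8 lists of H3K27ac and H3K4me3 used only as annotation, and 7 libraries not analysed here. Per the submitters' processing notes, reads were handled with Trim Galore, Bowtie2, Picard and MACS2 on GRCh38 (hg38). Their versions, roles, control and calling threshold are not given in the sources used here. The score deposited by the authors with each peak is a whole number of at least 50 whose definition is not stated, and it was used here for score ranks and a score filter inside each list. Peaks were called per library.

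Positions count from 1 on hg38, with GENCODE release 44 for genes. Covered bp per gene were fitted with limma 3.58.1 (R 4.3.3, trend and robust moderation, Benjamini-Hochberg adjustment over all genes with a mean of at least 100 bp), after a check on simulated data. The simulated data had normal noise and few changed genes, unlike the real coverage, so that check does not show how well the calls are calibrated. Overlap meant at least 1 bp. Numbers per library were compared by exact permutation. Regions went to the nearest protein-coding TSS within 100 kb, which need not be the gene they act on.

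Named genes had groups that did not overlap with all peaks and with the matched number, and were ordered by size, the 10 largest higher and the 5 largest lower, with called genes first. The 10 genes with most gained regions and list members were added. Some items that met these rules are not reported here. Named regions held their pattern under both counts and were ordered by the poorer score rank. The members and lists were chosen with earlier results of these data known. The TSS profile, the split by H3K4me3 and the fit without saturated windows were added after seeing the data.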

Additional observations from a re-analysis of the deposited data

How the results depend on the processing

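The matched number of top-scoring peaks reversed the ratio of promoter peaks (-0.065 in log2) and gave 1241 distal gains, 267 distal losses, 121 promoter gains, 324 promoter losses and 0 genes with higher distal coverage. A score of at least 100 gave 25 distal losses and 0 such genes. Promoters within 2500 bp gave 736 promoter gains, a region counted only if at least 50% covered gave 710 promoter gains and 64 promoter losses, and regions joined across 500 bp gave 12 promoter losses. Genes with higher distal coverage numbered 0 with the nearest TSS within 20 kb, 0 on the log2(bp + 100) scale, 164 as a share of covered length, 510 on the log2(bp + 500) scale and 905 without a filter. The cause was not tested.

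Leaving out 1 library gave 4865 to 8449 distal gains, 91 to 524 distal losses, 533 to 1073 promoter gains and 77 to 393 promoter losses, counts that need 1 list fewer. It gave 0 to 1151 genes with higher distal coverage (0 without either DMSO library, 957 without Corin replicate 1 and 1151 without Corin replicate 2), 0 to 7 with lower distal coverage, and 0 to 324 with higher and 0 to 6 with lower promoter coverage, the highest values arising without DMSO replicate 2. In these fits the lone library is assumed to vary like the other group.

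A replicate block, pairing libraries of the same number, gave 1284 genes with higher distal coverage and left the ratios of peaks at 0.64 and 0.10 (exact p = 0.5). Deviations of same-numbered libraries correlated at 0.26 for promoters and 0.28 for distal coverage across genes, but what same-numbered libraries have in common is not in the labels. The widening of distal and promoter regions kept its sign in every alternative run, though the matched number and the score filter leave the width of kept peaks as it was. Leaving out promoter windows covered from end to end in all 4 libraries, chosen after seeing the data, again called 0 genes. For the 10 named genes with called distal rises, 48 of 130 values under alternatives kept the call and 82 lost it. Among them DOCK5 alone kept it when 1 Corin library, of either number, was left out. No value reversed for the genes named by size or by number of gained regions. Other list members were not followed through these alternatives, and some changed sign at the matched number, such as PHF21A in distal coverage (164 to -60.5 bp). Peak lists without reads limit the analysis to called presence and width.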
